A study of Homo sapiens with 6 samples.

Results

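Chemokines are small secreted or membrane-anchored proteins that direct the movement of leukocytes. The 10 chemokine genes described here, CXCL1, CXCL2, CXCL3, CXCL5, CXCL6, CXCL12, CXCL16, CCL2, CCL20 and CX3CL1, were taken by symbol out of 24462 symbols counted by bulk RNA-seq in cultured human colon cells. Each of the 10 had a single entry in every count file. The question put to them is which chemokine messages differ between a colon epithelial line and its APC-depleted counterpart.

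The lines were 1CT, an immortalized human colonic epithelial cell line (HCEC) of genotype WT that carries introduced hTERT, and 1CT-A, the same line depleted of wild type APC and given the genotype APC KD. APC is the tumour suppressor that holds β-catenin in check, and its loss is an early step in colorectal cancer. Both lines grew untreated in DMEM and M199 medium with EGF at 20 ng/mL, hydrocortisone at 1 µg/mL, insulin at 10 µg/mL, sodium selenite at 5 nM, transferrin at 2 µg/mL and 2% FBS, so both were exposed to a glucocorticoid, a class of hormone known to lower many inflammatory messages. There were 3 libraries per line, 6 in all, and 1CT-A is a single line. The labels do not say whether the 3 libraries came from separate cultures, so the tests measure the spread between these libraries, which may be technical.

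The CXC chemokines CXCL1, CXCL2, CXCL3, CXCL5 and CXCL6 carry a short ELR motif ahead of the cysteines, bind CXCR2 and draw neutrophils. They are called the 5 ELR members here, since CXCL8 and other ELR chemokines are not among the 10 genes. CCL2 draws monocytes through CCR2, and CCL20, made by gut epithelium over lymphoid follicles, draws CCR6-bearing dendritic cells and lymphocytes. CXCL12 signals through CXCR4, while CXCL16 and CX3CL1 are made as membrane proteins, bind CXCR6 and CX3CR1, and are released by ADAM proteases. In epithelial cells many of these genes are known to respond to interleukin-1, TNF and Toll-like receptor signals through NF-κB, and their messages are often short-lived.

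The 1CT libraries held 7788679 to 8452258 counts and the 1CT-A libraries 11158108 to 12602988. APC itself had 417, 363 and 363 counts in 1CT and 351, 342 and 433 in 1CT-A, which on the deeper totals was a log2 fold change of -0.58 (SE 0.09, edgeR adjusted p = 0.000176), or 0.668 of the 1CT level. Among the 1CT libraries replicate 3 stood apart most, its chi-square against replicates 1 and 2 being 7.06 and 8.42 per degree of freedom where theirs against each other was 3.62. The epithelial label was only partly borne out by marker genes. EPCAM, CLDN3 and VIL1 had 0 counts in every library, CDH1 had at most 4 and KRT20 and CDX2 at most 1, whereas CLDN7 had 196 to 308 counts, KRT18 82 to 109 in 1CT and 36 to 80 in 1CT-A, and KRT19 20, 27 and 34 in 1CT and 0 in 1CT-A, at least 13-fold lower. KRT18 was also called lower, with a log2 fold change of -1.19 (edgeR adjusted p = 0.000882), as was CLDN7 at -0.40 (adjusted p = 0.0225), a call lost without replicate 1 of 1CT (-0.38), replicate 1 of 1CT-A (-0.39) or replicate 2 of 1CT-A (-0.28). Of the mesenchymal markers VIM had 12813 to 20489 counts and COL1A1 14072 to 17387. All 10 on that list were tested, with 3 called higher in 1CT-A and 4 lower. The share called was 70%, beside 51.0% of all genes tested. In CPM, counts scaled so that each library has the same total, the 11 epithelial markers summed to 41.2 to 45.2 in 1CT and 23.6 to 30.8 in 1CT-A, and the 10 fibroblast and mesenchymal markers to 4717 to 5760 and 4392 to 4705. Of 11 leukocyte markers 4 were at 0 throughout, the pan-leukocyte marker PTPRC among them, and the list summed to 12.7 to 15.6 CPM in 1CT and 9.52 to 10.5 in 1CT-A, most of it CD68. The 5 endothelial markers summed to 3.60 to 6.52 and 1.08 to 2.55 CPM, with CDH5 at 0. The leukocyte and endothelial lists had 1 tested gene each, and each was called lower in 1CT-A. The part of these marker differences in the chemokine results was not tested.

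The genes fall into 2 sets by place. In the GENCODE annotation of GRCh38 the 5 ELR members lie within 262.6 kb of chromosome 4, CXCL6 at chr4:73836640-73849064 and CXCL1 at chr4:73869393-73871308 on the plus strand, and CXCL5 at chr4:73995642-73998677, CXCL3 at chr4:74036589-74038807 and CXCL2 at chr4:74097040-74099196 on the minus strand. The other members are scattered, with CCL20 at chr2:227805739-227817564 (plus strand), CXCL12 at chr10:44370165-44386493 (minus), CX3CL1 at chr16:57372477-57385044 (plus), CXCL16 at chr17:4733533-4739928 (minus) and CCL2 at chr17:34255274-34257208 (plus). The submitters' processing notes name the older build hg19, so these coordinates describe the annotation and not the counting.

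The 6 promoters shown are those with a match to the NF-κB motif among the 7 members found in RefSeq's promoter table. Each line holds the 150 bases before the RefSeq start on GRCh38.p14, 5′ to 3′ on the gene's own strand, with the NF-κB match in capitals. They span chr4:73869243-73869392 (plus strand) for CXCL1, chr4:74099196-74099345 (minus) for CXCL2, chr4:74038690-74038839 (minus) for CXCL3, chr4:73998678-73998827 (minus) for CXCL5, chr4:73836528-73836677 (plus) for CXCL6 and chr2:227813692-227813841 (plus) for CCL20. The RefSeq starts of CCL20, CXCL3, CXCL6 and, barely, CXCL2 lie inside the longer GENCODE genes. Some or all of the bases printed for them therefore lie within those genes.
CXCL1: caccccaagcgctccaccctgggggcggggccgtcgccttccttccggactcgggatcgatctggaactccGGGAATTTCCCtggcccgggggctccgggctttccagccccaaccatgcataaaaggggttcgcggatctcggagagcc
CXCL2: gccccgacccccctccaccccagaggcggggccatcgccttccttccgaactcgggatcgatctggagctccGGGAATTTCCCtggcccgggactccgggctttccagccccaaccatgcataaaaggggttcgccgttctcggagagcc
CXCL3: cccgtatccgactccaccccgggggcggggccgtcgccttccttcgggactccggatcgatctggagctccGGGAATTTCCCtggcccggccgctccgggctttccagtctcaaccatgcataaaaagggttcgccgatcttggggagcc
CXCL5: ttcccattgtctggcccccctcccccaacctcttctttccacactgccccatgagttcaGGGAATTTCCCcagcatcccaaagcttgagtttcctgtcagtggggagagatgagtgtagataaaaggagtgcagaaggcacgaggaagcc
CXCL6: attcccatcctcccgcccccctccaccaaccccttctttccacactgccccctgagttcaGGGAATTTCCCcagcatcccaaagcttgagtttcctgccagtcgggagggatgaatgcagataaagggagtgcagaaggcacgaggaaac
CCL20: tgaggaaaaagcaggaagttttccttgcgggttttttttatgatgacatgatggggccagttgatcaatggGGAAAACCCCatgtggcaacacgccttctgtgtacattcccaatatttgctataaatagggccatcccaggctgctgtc

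The promoters of the 5 ELR members hold the same 11 letters, GGGAATTTCCC, which read almost alike on both strands and so give overlapping NF-κB matches on each. They lie from -79 to -69 in CXCL1 and CXCL3, from -78 to -68 in CXCL2, from -91 to -81 in CXCL5 and from -90 to -80 in CXCL6, counted back from the start. Over windows of 250 bases before to 50 after the start, 5.91% of 35116 RefSeq promoters held an NF-κB match and 27 (0.0769%) held these 11 letters, a word chosen after the promoters were seen. In CCL20 the letters GGAAAACCCC, from -79 to -70 and written on the gene's own strand as above, match the motif when read on the opposite strand. Read on both strands, the AP-1 word TGANTCA was in 0 of the 7 members' windows and in 7.71% of all promoters, the TCF/LEF core CTTTGA in CXCL12 alone among them and in 12.9% of all, and TATAAA in CCL20 alone among them and in 11.5% of all. CXCL16, CCL2 and CX3CL1 were not in the table. A match is a run of letters and was not measured as a bound site.

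Among the 10 genes, the messages of the 5 ELR members were higher in 1CT-A and those of CCL2 and CCL20 were lower, while the ELR chemokine CXCL8, outside the 10, was not called. By the quasi-likelihood test of edgeR, fitted on all genes with Benjamini-Hochberg adjustment and a threshold of 0.05, 8 of the 10 genes could be tested. Of these 5 were called higher in 1CT-A, where 25.0% of all 12514 genes tested were, 2 were called lower, where 26.0% were, and CXCL16 was not called. The lines differed widely, with 51.0% of all genes tested called in either direction. The filter on low counts kept genes at or above 1.02 CPM in 3 or more libraries. CXCL6 passed it only through 1CT-A and CCL20 passed it in all 3 libraries of 1CT but in 1 of 1CT-A, so the counts of called genes are a description and not support. In bulk libraries, fewer cells making a message and less message per cell cannot be told apart.

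CXCL3, one of the 3 closely related growth-regulated (GRO) chemokines, changed most among the 5 ELR members. Its counts were 17, 14 and 14 in 1CT and 173, 206 and 231 in 1CT-A, or 2.01, 1.69 and 1.80 CPM against 15.5, 18.1 and 18.3. All 3 libraries of 1CT-A lay far above all 3 of 1CT. The means were 1.83 ± 0.163 and 17.3 ± 1.56 CPM (SD, n = 3 each), and the fitted change was 9.13-fold, a log2 fold change of 3.19 (SE 0.18, edgeR adjusted p = 2.09e-08). CXCL2, its neighbour and a GRO chemokine made by many cell types in inflammation, had 11, 7 and 8 counts in 1CT and 54, 75 and 87 in 1CT-A. That was 1.30, 0.845 and 1.03 CPM against 4.84, 6.58 and 6.90, again without overlap. CXCL2 rose 5.57-fold, a log2 fold change of 2.48 (SE 0.28, edgeR adjusted p = 1.02e-05), starting from 7 to 11 counts in 1CT.

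CXCL1, the first described of the GRO chemokines, was already well counted in 1CT, with 127, 136 and 76 counts, and had 224, 330 and 360 in 1CT-A. The lowest 1CT-A library, replicate 1 at 20.1 CPM, lay above the highest 1CT library, replicate 2 at 16.4 CPM. The means were 13.7 ± 3.51 and 25.9 ± 5.02 CPM (SD, n = 3 each). The change was 1.83-fold, or 0.87 on the log2 scale (SE 0.18, edgeR adjusted p = 0.00134), so it passes the test but not a requirement of a 2-fold change.

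CXCL5 and CXCL6, a second pair of near copies that also attract neutrophils, were higher as well. CXCL5 had 8.99, 5.80 and 6.81 CPM in 1CT and 15.6, 14.8 and 15.7 in 1CT-A, from 76, 48 and 53 against 174, 169 and 198 counts. The 1CT-A libraries were nearly level with each other and all lay above 1CT. The change was 2.08-fold, a log2 fold change of 1.05 (SE 0.16, edgeR adjusted p = 0.000134). CXCL6 was thinly counted, with 4, 5 and 6 counts in 1CT and 22, 29 and 14 in 1CT-A, or 0.473, 0.604 and 0.770 CPM against 1.97, 2.54 and 1.11. The lines did not overlap, but replicate 3 of 1CT-A was close to 1CT. CXCL6 rose 2.92-fold, 1.55 on the log2 scale (SE 0.44, edgeR adjusted p = 0.00994). Without replicate 1 or without replicate 2 of 1CT-A it fell below the filter and had no test. In the annotation CXCL5 overlaps a long noncoding RNA on the opposite strand and CXCL6 overlaps the pseudogene PPBPP1 on the same strand, and their counts are uncertain to that extent.

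**Figure D1:**
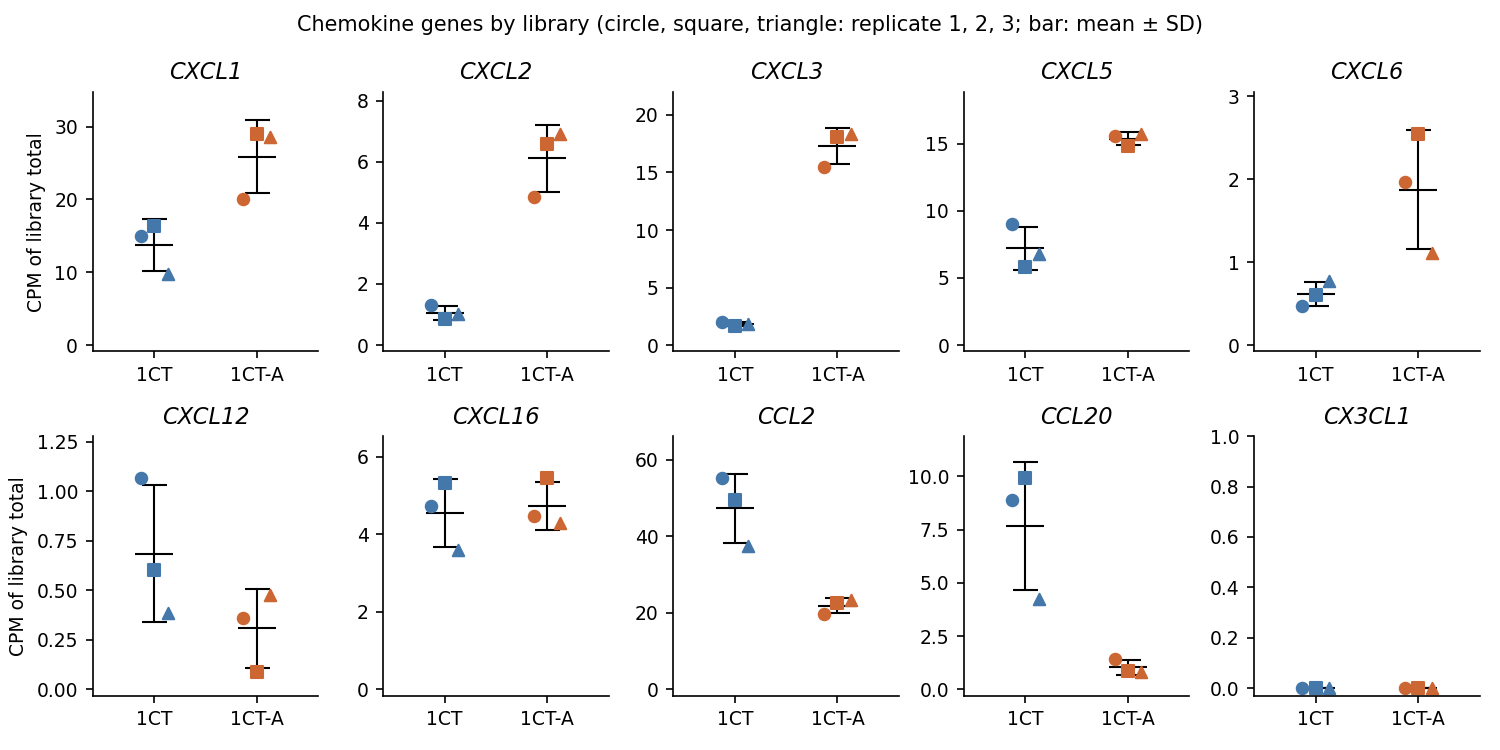
Each panel plots 1 of the 10 chemokine genes, with the line on the horizontal axis and CPM of the library's total on the vertical axis, on a scale of its own from 0. Symbols are the 3 libraries of each line and bars are the mean ± SD. The 1CT-A libraries lie above 1CT without overlap for CXCL1, CXCL2, CXCL3, CXCL5 and CXCL6 and below it for CCL2 and CCL20, while CXCL12 and CXCL16 overlap and CX3CL1 is at 0.

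CCL2, the monocyte attractant also called MCP1, was lower in 1CT-A. It had 466, 409 and 292 counts in 1CT and 221, 257 and 294 in 1CT-A, or 55.1, 49.4 and 37.5 CPM against 19.8, 22.6 and 23.3. The lowest 1CT library, replicate 3, was still well above the highest of 1CT-A. The means were 47.3 ± 9.0 and 21.9 ± 1.85 CPM (SD, n = 3 each), and the level in 1CT-A was 0.451 of that in 1CT, a log2 fold change of -1.15 (SE 0.13, edgeR adjusted p = 9.02e-06).

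CCL20, the ligand of CCR6, fell further. Its 75, 82 and 33 counts in 1CT, or 8.87, 9.90 and 4.24 CPM, compare with 16, 10 and 10 counts in 1CT-A, or 1.43, 0.878 and 0.793 CPM. Replicate 3 of 1CT was less than the other two yet above every 1CT-A library. The fitted level in 1CT-A was 0.131 of that in 1CT, a log2 fold change of -2.93 (SE 0.35, edgeR adjusted p = 1.7e-05). Leaving out each library in turn gave values from -3.23 to -2.71.

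CXCL16, the membrane-anchored ligand of CXCR6, showed no detectable difference. It had 40, 44 and 28 counts in 1CT and 50, 62 and 54 in 1CT-A, or 4.73, 5.31 and 3.60 CPM against 4.48, 5.44 and 4.29, and the lines overlapped. The log2 fold change was 0.01 (SE 0.22, edgeR adjusted p = 0.959), with a 95% interval from -0.45 to 0.48, so changes smaller than that remain possible at this depth. CXCL16 overlaps MED11 and ZMYND15 on the opposite strand, and whether the counting used strand is not given in the sources used here.

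CXCL12 and CX3CL1 were at or near the limit of detection and were not tested. CXCL12, the homeostatic chemokine of stromal cells, had 9, 5 and 3 counts in 1CT and 4, 1 and 6 in 1CT-A, or 0.685 ± 0.347 and 0.307 ± 0.199 CPM (SD, n = 3 each), with overlap and p = 0.2 in an exact two-sided permutation test. Fitted without the filter, its log2 fold change was -1.11 (SE 0.71, edgeR adjusted p = 0.232). CX3CL1, or fractalkine, had 0 counts in all 6 libraries, which allows up to 0.355, 0.362 and 0.385 CPM in the 1CT libraries and 0.269, 0.263 and 0.238 in those of 1CT-A, taking 3 counts as the limit and covering counting error alone.

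For each of the 7 genes called, the CPM values of the lines did not overlap. How many of all genes separate in this way was not counted, so the separation is a description and not support. Of all genes tested 51.0% were called, which is a different measure. The exact two-sided permutation test gave p = 0.1 for each of the 7, the smallest that 3 libraries against 3 can give. The calls therefore rest on the edgeR fit, which borrows the spread of other genes.

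The summed level of the 10 genes overlapped between the lines, at 97.6, 90.6 and 65.9 CPM in 1CT and 84.1, 99.97 and 99.5 in 1CT-A. What separated them was the make-up of that sum. The 5 ELR members together had 27.8, 25.4 and 20.2 CPM in 1CT and 58.0, 71.0 and 70.6 in 1CT-A. They took 28.5%, 28% and 30.6% of the counts on the 10 genes in 1CT and 69.0%, 71.0% and 71.0% in 1CT-A, with Wilson 95% intervals reaching up to 34.7% in 1CT and down to 65.9% in 1CT-A. CCL2 took 56.5%, 54.5% and 56.9% in 1CT, with intervals from 51.0% upward, and 23.6%, 22.6% and 23.4% in 1CT-A, with intervals up to 26.4%. CCL20 took 9.09%, 10.9% and 6.43% in 1CT and 1.71%, 0.878% and 0.797% in 1CT-A. QuantSeq primes at the 3′ end of the message, so counts do not grow with its length, but priming can differ between genes and these shares are set against each other between libraries, not between genes.

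The GRO genes did not rise evenly. CXCL3 took 11% (Wilson 95% interval 6.96% to 16.9%), 8.92% (5.39% to 14.4%) and 14.3% (8.70% to 22.6%) of the CXCL1, CXCL2 and CXCL3 counts in the 1CT libraries. In 1CT-A it took 38.4% (34.0% to 42.9%), 33.7% (30.1% to 37.6%) and 34.1% (30.6% to 37.7%). The CXCL1 share was lower to match, at 81.9%, 86.6% and 77.6% in 1CT and 49.7%, 54.0% and 53.1% in 1CT-A. The ratio of CXCL3 to CXCL1 was 2.31 higher in 1CT-A on the log2 scale and that of CXCL2 to CXCL1 was 1.61 higher, both without overlap between the lines and with p = 0.1 in an exact two-sided permutation test. The ratio of CXCL5 to CXCL1 differed by 0.19 and overlapped (exact permutation p = 0.7). Among the genes that fell, the ratio of CCL20 to CCL2 was lower in 1CT-A by -1.75 on the log2 scale, without overlap (exact permutation p = 0.1). These intervals and the permutation tests over 5 ratios were not adjusted, and no smaller p is possible with these libraries.

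**Figure D2:**
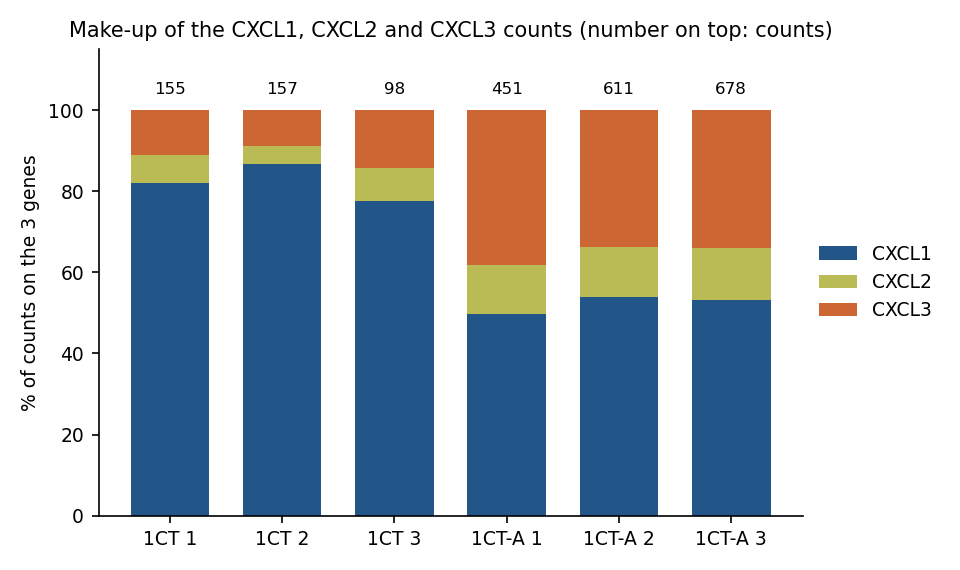
Each bar is 1 library and shows the percent of its counts on CXCL1, CXCL2 and CXCL3 that fell on each gene, with the number of those counts on top. CXCL3 makes up 8.92% to 14.3% of the bars of 1CT and 33.7% to 38.4% of those of 1CT-A.

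The near identity of these genes bears on how their reads were assigned. Their coding sequences are 93.5% identical between CXCL1 and CXCL2, 90.7% between CXCL1 and CXCL3, 94.4% between CXCL2 and CXCL3 and 87.4% between CXCL5 and CXCL6. The 3′ ends, where these libraries are primed, were compared by exact shared windows, a measure that cannot be set against percent identity. Of 451 windows of 50 bases in the last 500 bases of the CXCL1 transcript, 46 occurred exactly in that of CXCL2, and for windows of 75 bases 3 of 426 did. The other pairs among the 5 ELR members shared 0 windows at either length. Reads could thus be split wrongly between CXCL1 and CXCL2. Exact windows do not show how reads with mismatches were placed, for these or the other pairs. How the counting treated reads with several matches is not given in the sources used here.

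The 5 ELR members and CCL20 also share a feature of the sequence after the stop codon. ATTTA, the core of AU-rich elements that mark short-lived messages, occurred there 14.0 times per kb in CXCL2, 10.4 in CXCL3, 7.77 in CXCL1, 6.34 in CCL20, 5.51 in CXCL5 and 5.36 in CXCL6. Over 18492 protein coding genes the median was 1.64 per kb and 9.47% had 5 or more per kb. The other members were lower, at 3.19 in CXCL12, 2.66 in CCL2, 1.03 in CXCL16 and 0.994 in CX3CL1. CCL20, which fell, had a density between those of CXCL1 and CXCL5, which rose. CXCL8, outside the 10 genes, had 7.19 per kb. It was not called and gave no firm direction. Whether the density bears on the changes was not tested.

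**Figure D3:**
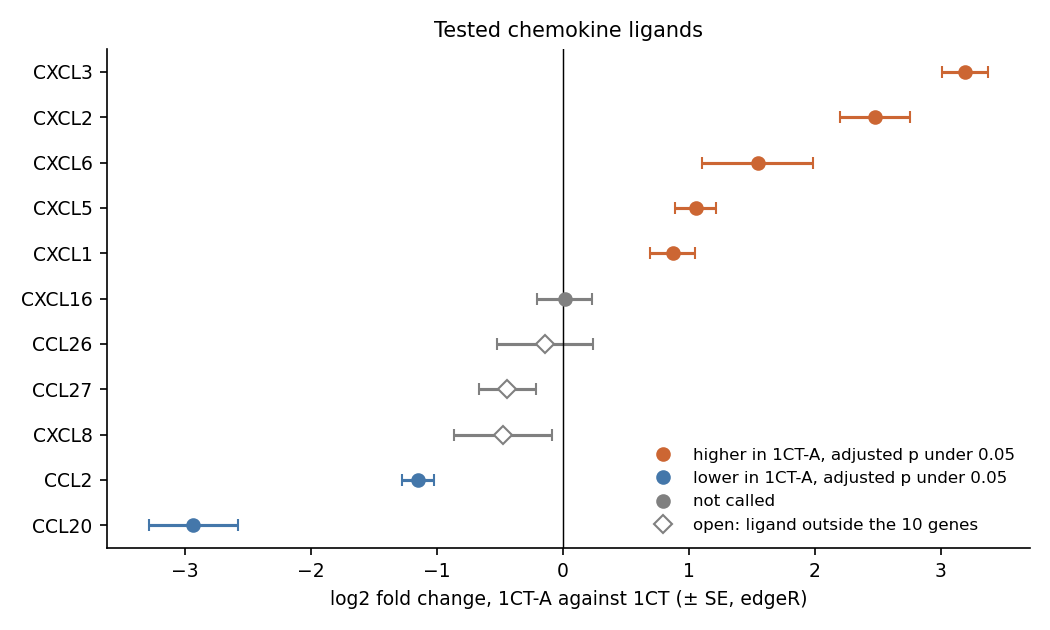
Points give the log2 fold change (1CT-A over 1CT) for the 8 tested genes of the 10 (filled) and the 3 tested ligands outside them (open), with bars of ± 1 SE from edgeR. Changes run from -2.93 for CCL20 to 3.19 for CXCL3, and the 4 grey genes, CXCL16, CCL26, CCL27 and CXCL8, were not called.

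The remaining chemokine ligands were few. Of 38 other ligand genes 21 had 0 counts in every library and 28 had at most 3. Only CXCL8, CCL26 and CCL27 passed the filter. Of these, 0 of 3 were called, beside 51.0% of all genes tested, and 3 genes are too few for a contrast. Their median log2 fold change was -0.44, beside -0.01 over all genes tested. Among these 3, 0 had an unadjusted p under 0.05 in edgeR, and DESeq2 and limma-voom called 0. CXCL8 (interleukin-8) is itself an ELR chemokine and neutrophil attractant and lies beside CXCL6. It had 7.22, 18.1 and 3.47 CPM in 1CT and 6.81, 7.72 and 6.82 in 1CT-A, so the 1CT libraries spanned the whole range of 1CT-A. Its log2 fold change was -0.47 (SE 0.39, edgeR adjusted p = 0.327, 95% interval -1.31 to 0.36). The value turned to 0.36 (adjusted p = 0.27) without replicate 2 of 1CT and fell to -0.85 (adjusted p = 0.0123) without replicate 3 of 1CT, so CXCL8 gives no firm direction. Fitted without the filter on low counts it was called lower, at -0.43 (adjusted p = 0.0461). CCL27, a skin-type chemokine, had 38, 58 and 53 counts in 1CT and 43, 64 and 55 in 1CT-A, a log2 fold change of -0.44 (SE 0.23, edgeR adjusted p = 0.125), which became -0.62 (adjusted p = 0.0403) without replicate 1 of 1CT. CCL26 had 7 to 17 counts in both lines and a log2 fold change of -0.14 (SE 0.38, edgeR adjusted p = 0.781). A pair of ligands below the filter is named after its values were seen. PF4, or platelet factor 4, had 30, 16 and 6 counts in 1CT and 1, 0 and 3 in 1CT-A, at least 8.12-fold lower. It passed the filter and was called lower when any 1CT-A library, or replicate 3 of 1CT, was left out, as the filter then asked for fewer libraries. That brought the ligands called to 1, and to 2 with CXCL8 in the fit without replicate 3 of 1CT. CCL11, or eotaxin, had 0 counts in 1CT and 7, 8 and 10 in 1CT-A, at least 1.93-fold higher.

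On chromosome 4 the 5 ELR members were all called higher, while the tested genes listed around them went both ways. Of 13 neighbouring genes listed with them, 4 were tested. The share of these called was 50%, beside 51.0% of all genes tested. EREG, which encodes the EGF receptor ligand epiregulin, had 3, 10 and 3 counts in 1CT and 103, 133 and 157 in 1CT-A and rose by 4.03 on the log2 scale (SE 0.32, edgeR adjusted p = 4.52e-07), and by 4.83 without replicate 2 of 1CT. AREG, which encodes amphiregulin and lies next to it, had 85, 66 and 56 counts in 1CT and 17, 20 and 31 in 1CT-A, a log2 fold change of -2.16 (SE 0.24, edgeR adjusted p = 8.23e-06). Adjacent genes of 1 family thus differed in direction. CXCL8 and AFP, which encodes alpha-fetoprotein, were not called, with AFP at -0.62 (SE 0.38, edgeR adjusted p = 0.195). The other 9, ALB, AFM, RASSF6, PF4V1, PF4, PPBP, MTHFD2L, EPGN and BTC, were below the filter. Of these PF4 lies between CXCL1 and CXCL5 and had fewer counts in 1CT-A, as given above.

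**Figure D4:**
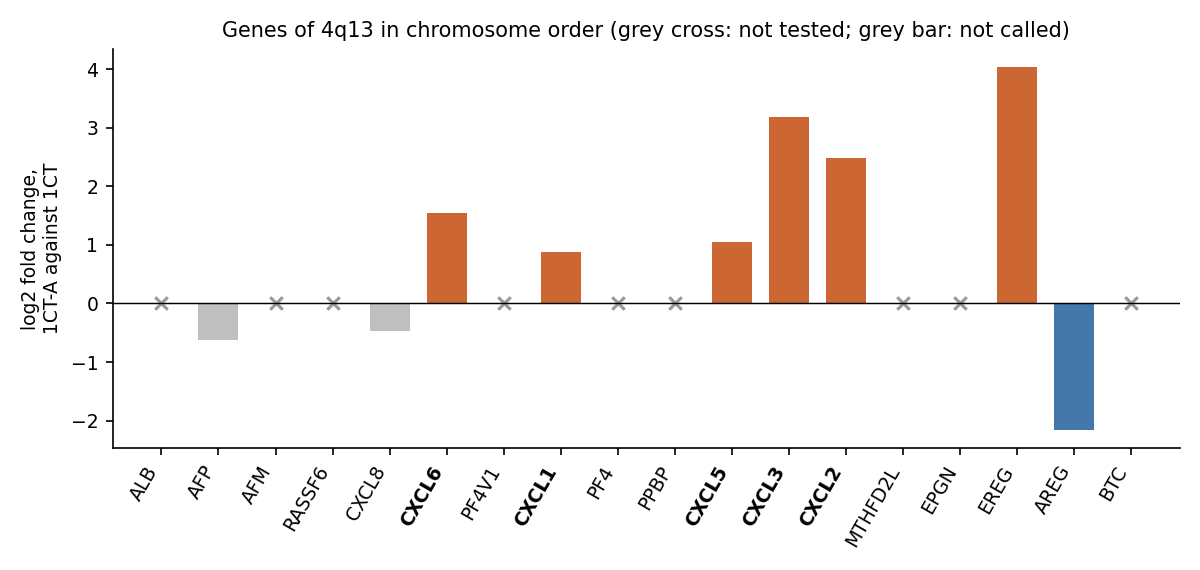
Genes of 4q13 stand in chromosome order from left to right, not to scale, with the log2 fold change (1CT-A over 1CT) on the vertical axis. The 5 ELR members (bold) rise by 0.87 to 3.19, EREG by 4.03, AREG is at -2.16, grey bars (CXCL8, AFP) were not called and grey crosses mark genes below the filter.

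Receptors for these ligands were almost uncounted in the cells. Of 23 receptor genes 11 had 0 counts in every library, among them CXCR1, CXCR2, CCR2 and CX3CR1, while CCR6 had at most 2 counts and CXCR4 at most 1. Of the 3 tested, 1 was called, a share of 33.3% beside 51.0% of all genes tested. The gene called was ACKR3, a scavenging receptor for CXCL12, which was higher. It had 0, 57 and 7 counts in 1CT and 101, 129 and 134 in 1CT-A, a log2 fold change of 1.95 (SE 0.58, edgeR adjusted p = 0.0134). All 3 1CT-A libraries lay above 1CT, but the size rests on replicate 2 of 1CT, without which it was 4.50, and by DESeq2 the adjusted p was 0.324. CXCR5, a B cell receptor gene, had 968 to 1374 counts per library and a log2 fold change of -0.19 (SE 0.09, edgeR adjusted p = 0.0911), but it overlaps BCL9L on the opposite strand, so its counts are uncertain. It passed the threshold without replicate 1 of 1CT-A, at -0.29 (adjusted p = 0.0179), and with upper quartile scaling, at -0.25 (adjusted p = 0.0354). CCRL2, an atypical receptor gene named after its values were seen, had 10, 11 and 6 counts in 1CT and 0 in 1CT-A, at least 4.26-fold lower. It was tested and called lower when any 1CT-A library or replicate 3 of 1CT was left out, as the filter then asked for fewer libraries.

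Of the 8 listed proteases that release or trim chemokines 6 were tested, with 3 higher and 0 lower (median log2 fold change 0.45), a share of 50% called beside 51.0% of all genes tested. DPP4, which clips the ends of several chemokines including CXCL12, went from 4.06 ± 0.775 to 25.6 ± 3.91 CPM (SD, n = 3 each) and rose by 2.61 on the log2 scale (SE 0.17, edgeR adjusted p = 9.46e-08). MMP2, a gelatinase, rose by 2.06 (SE 0.23, edgeR adjusted p = 1.02e-05). ADAM10, which sheds CXCL16 and CX3CL1, rose by 0.63 (SE 0.11, edgeR adjusted p = 0.000384). MMP14, the most counted of the list, was at 0.27 (SE 0.19, edgeR adjusted p = 0.266).

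Genes upstream of chemokine induction went both ways. Of 26 receptors and adaptors for Toll-like, interleukin-1, TNF and interleukin-17 signals 21 were tested, with 3 higher and 7 lower (median log2 fold change -0.11), a share of 47.6% called and again near the 51.0% of all genes. TLR4 and IL17RD passed the filter only through 1CT. TLR4, the receptor for bacterial lipopolysaccharide, had 240, 209 and 141 counts in 1CT and 0, 0 and 2 in 1CT-A, at least 93.1-fold lower. The genes IL17RD, TLR6 and TRADD, a TNF receptor adaptor, fell with log2 fold changes of -2.77, -1.02 and -0.76. The 2 most counted genes were steadier, TNFRSF1A at 0.07 (edgeR adjusted p = 0.451) and the interleukin-1 receptor kinase gene IRAK1, which rose by 0.22 (edgeR adjusted p = 0.0437), a call lost without replicate 1 (0.20) or 2 (0.16) of 1CT and without replicate 1 (0.18) or 2 (0.22) of 1CT-A. Of 10 inducing cytokines 1 was tested, IL18, with 316, 310 and 227 counts in 1CT and 4, 8 and 6 in 1CT-A, a log2 fold change of -6.09 (SE 0.22, edgeR adjusted p = 4.1e-10). IL18 passed the filter only through 1CT, where it is high, so this call is a description. TNF had at most 2 counts and IL1A at most 3 in any library. IL1B, named after its values were seen, had 2, 3 and 1 counts in 1CT and 4, 12 and 13 in 1CT-A. It was below the filter and not tested. The lines overlapped, with 0.3622 CPM in replicate 2 of 1CT and 0.3585 in replicate 1 of 1CT-A.

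All 21 genes listed as NF-κB subunits and regulators were tested, with 2 higher and 11 lower (median log2 fold change -0.65). The share called was 61.9%, beside 51.0% of all genes tested. TNFAIP3, the A20 feedback inhibitor, had 93, 81 and 91 counts in 1CT and 13, 11 and 17 in 1CT-A and fell by 3.24 on the log2 scale (SE 0.22, edgeR adjusted p = 1.17e-07). The log2 fold change was -2.65 for BIRC3, -1.65 for the inhibitor gene NFKBIE and -1.51 for the subunit gene RELB, all of them called. NFKBIA, the most counted of the list, was at -0.09 (edgeR adjusted p = 0.281), and BIRC2 fell by 0.91. The genes called higher, BCL3 at 1.10 and CHUK at 0.81, encode a nuclear IκB protein and a kinase of the IκB kinase complex. Of the 6 members with an NF-κB match in the promoter, CCL20 was lower and the 5 ELR members were higher. These are message levels, and NF-κB activity was not measured.

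Other secreted or surface inflammatory genes went both ways, with 4 of 13 tested higher and 7 lower (median log2 fold change -1.38). The share called was 84.6%, beside 51.0% of all genes tested. The acute phase genes fell, SAA2 from 28, 32 and 24 counts to 1 in each 1CT-A library, at least 13.3-fold lower, and SAA1 from 314, 386 and 278 counts to 3, 53 and 9. The log2 fold change of SAA1 was -4.46 and rests on replicate 2 of 1CT-A, without which it was -6.30. VCAM1, a leukocyte adhesion molecule gene, fell by 3.92. TNFAIP6, a hyaluronan-binding protein gene, had 1, 3 and 0 counts in 1CT and 34, 43 and 40 in 1CT-A, at least 9.07-fold higher. The 2 most counted genes, SOD2 and CSF1, rose by 0.44 and 0.32 on the log2 scale. The call of CSF1 was lost, with values from 0.17 to 0.35, without any single library except replicate 2 of 1CT. Of the 13 tested genes, 5 passed the filter only through 1 line.

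Among 11 genes listed under mRNA decay, all were tested, with 5 higher and 2 lower (median log2 fold change 0.27). The share called was 63.6%, beside 51.0% of all genes tested. HNRNPD, the AUF1 decay factor gene, rose by 1.23 (SE 0.09, edgeR adjusted p = 1.35e-07). ELAVL1, which encodes the stabilizing factor HuR, rose by 1.04 (SE 0.11, edgeR adjusted p = 6.45e-06). ZFP36, the gene of the decay factor tristetraprolin, had 112, 70 and 21 counts in 1CT and 161, 227 and 219 in 1CT-A. It rose by 1.03 (SE 0.32, edgeR adjusted p = 0.0162). That call was lost without replicate 2 of 1CT-A (0.93, edgeR adjusted p = 0.0656) and by DESeq2 (1.05, adjusted p = 0.145). DUSP1, a phosphatase gene, fell by 0.94, the abundant ZFP36L1 fell by 0.17 and KHSRP rose by 0.50. The call of ZFP36L1 was lost without replicate 2 of 1CT or any library of 1CT-A, with values from -0.19 to -0.15. Genes for factors of opposite known action thus moved in the same direction.

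**Figure D5:**
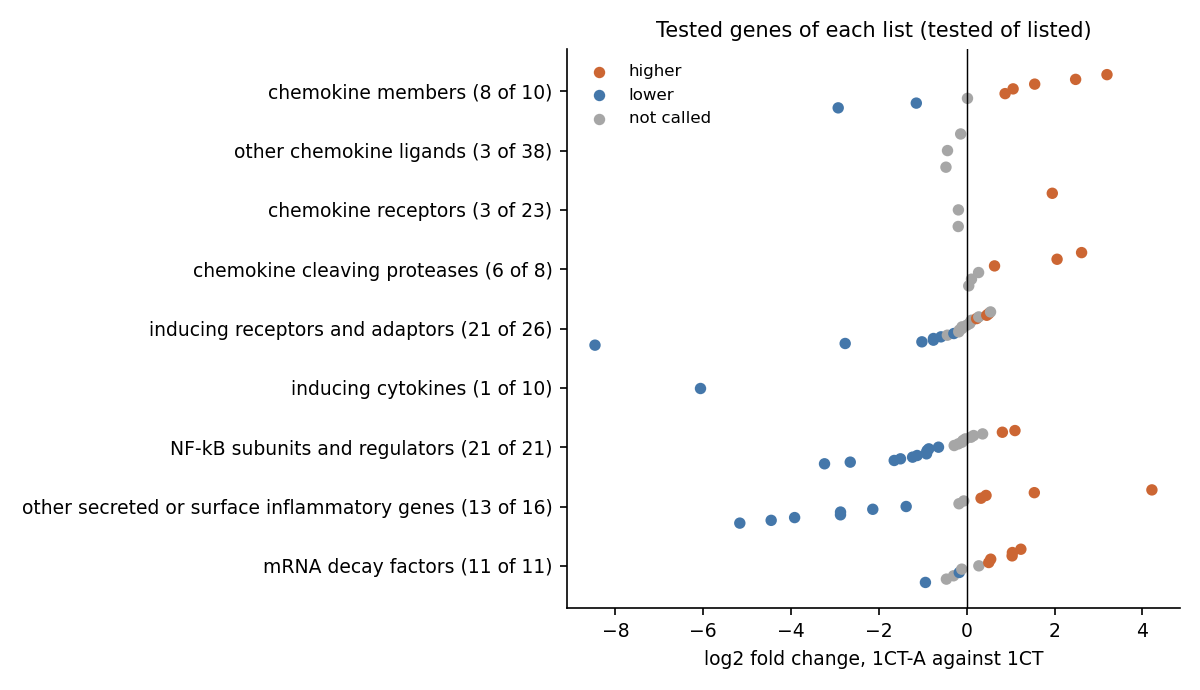
Each point is a tested gene, placed by its log2 fold change (1CT-A over 1CT), with the gene lists as lines and the numbers tested of listed in the labels. Fitted values of genes with at most 3 counts in a line, such as TLR4, depend on the model and are given in the text as lower bounds. The NF-κB list has 11 genes lower and 2 higher, while the chemokine members have 5 higher and 2 lower.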

How the data were processed

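Bulk RNA-seq of 3 1CT and 3 1CT-A libraries was analysed. Per the labels, RNA was taken with Trizol and 500 ng went into Lexogen QuantSeq 3′ libraries sequenced on an Illumina NextSeq, whereas the study's methods name RNA-spin and a microarray service. The authors deposited whole-number counts per gene symbol for each library, not normalized or pooled. The submitters' processing notes name hg19, Bowtie2 and edgeR without their roles, and the annotation, the counting tool and its use of strand are not given in the sources used here.

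Entries of a repeated symbol were summed. The test was the quasi-likelihood test of edgeR 4.0.16 (R 4.3.3) with TMM normalization, filterByExpr at a minimum count of 10, no block, and Benjamini-Hochberg adjustment over 12514 genes. The same test was run on simulated counts with known changes, built from the mean levels of these genes. The simulation gave all genes 1 common spread, so it does not cover genes that vary more. CPM values are of the library total. A fold given as at least a value sets the mean CPM of the higher line against 3 counts per library in the other. It does not cover the spread between libraries. Single genes and ratios were compared with exact permutation tests (SciPy 1.17.1). Alternatives were DESeq2 1.42.0 and its size factors, limma-voom (limma 3.58.1), other scalings and filters, a replicate block, stricter thresholds and each library left out. Positions came from GENCODE 44 and promoters from RefSeq. Intervals of shares are Wilson intervals at 95% and cover counting error only, as reads without molecular identifiers are not independent molecules.

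The members and lists were chosen with earlier results of these data known. The text names every member and 4q13 neighbour, and of each other list up to 4 called genes with the largest change and the 2 tested genes with the highest mean CPM. Proteins were not analysed here.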

Additional observations from a re-analysis of the deposited data

How the results depend on the processing

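The calls of the 8 tested chemokine genes were stable over the 16 alternatives wherever a gene could be tested. CXCL1 ran from 0.70 to 1.02 on the log2 scale, CXCL2 from 2.34 to 2.66, CXCL3 from 3.14 to 3.26, CXCL5 from 0.92 to 1.25, CXCL6 from 1.39 to 1.83, CCL2 from -1.28 to -1.03 and CCL20 from -3.23 to -2.71. The exception was CXCL1 under a required 2-fold change, which its 0.87 does not reach. The highest adjusted p was 0.0428, for CXCL6. With at least 10 counts in every library 3 genes were called higher, since CXCL2 and CXCL6 were then not tested, and 4 to 5 were with each library left out. The count called lower was 2 throughout. CXCL16, near 0, changed sign to -0.040 with upper quartile scaling, to -0.0017 with at least 10 counts in every library, and, with each library left out, ran from -0.11 (without replicate 3 of 1CT) through -0.085 (without replicate 2 of 1CT-A) to 0.14, and was never called.

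Counts of called genes on the other lists moved more. Without a filter they were 3 for other ligands (0 in the report), 3 for receptors (1), 5 for proteases (3), 2 for inducing cytokines (1) and 4 for 4q13 neighbours (2). With at least 10 counts in every library they were 0 for receptors, 0 for inducing cytokines, 3 for other inflammatory genes (11) and 1 for 4q13 neighbours, since fewer genes were tested. Receptors had 2 with upper quartile scaling, 0 with DESeq2 and 0 at an adjusted p under 0.01, where inducing receptors had 6 (10). Requiring a 2-fold change left 3 inducing receptors, 7 NF-κB genes (13) and 3 decay factors (7). With each library left out the counts were 0 to 2 for other ligands, 1 to 3 for receptors, 3 to 4 for proteases, 9 to 10 for inducing receptors, 11 to 13 for NF-κB genes, 9 to 10 for other inflammatory genes, 5 to 7 for decay factors and 2 to 4 for 4q13 neighbours. Leaving a library out lowered the number of libraries the filter asks for from 3 to 2, so genes such as PF4 and CCRL2 came to be tested. Beyond that, fewer tested genes or a stricter threshold, the cause was not tested.

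Both lines carry the replicate numbers 1 to 3 in the labels, which do not say that a number marks a shared batch. Same-numbered libraries correlated at -0.16, 0.22 and -0.14 in their deviations over 8224 genes, so the numbers were not taken as pairs. With a replicate block, 5 chemokine genes were called higher and 2 lower, with CXCL3 at 3.19 and CCL20 at -2.89, and the block moved the genes called over the whole table from 3131 higher and 3257 lower to 2993 and 3098. At a 2-fold requirement those were 501 and 1242.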
